A study of Mus musculus with 24 samples.

Results

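Nerve injury effector genes are genes that sensory neurons switch on after their axons are cut or crushed. The 9 genes followed here were Sprr1a, Gap43, Gadd45a, Flrt3, Csrp3, Tnfrsf12a, Ecel1, Basp1 and Cckbr, each by the Ensembl identifier that the annotation gives for its symbol. They are 9 of the 47643 identifiers in the count files. They were chosen by measured values, after their levels had been compared between genotypes in these same samples, so their genotype differences are given as a description and without a test. The samples were pools of GFP-positive cells sorted from L4 dorsal root ganglia (DRG), the ganglia that hold the cell bodies of sensory neurons. Each mouse gave 3 technical libraries (A to C) of 100 cells, 4 mice were of each genotype, and RNA-seq reads were counted per gene in all 24 libraries.

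Control mice carried Nav1.8-Cre, 1 floxed and 1 intact Tsc2 allele and the Rosa26-ZsGreen reporter, so Cre-expressing control neurons had also lost 1 copy of Tsc2. Nav-Tsc2 mice carried Nav1.8-Cre, 1 floxed and 1 null Tsc2 allele and the same reporter, which leaves Cre-expressing neurons with no working copy and every other cell with 1. Nav1.8-Cre acts mainly in nociceptors, the neurons that sense painful stimuli, and also in some sensory neurons with myelinated axons. All mice were 8-9 weeks old and of mixed C57BL/6 and AJ background. In all of them the sciatic nerve of the other side had been crushed 3 d before, so the ganglia examined were those of the uninjured side. Mice 1 and 2 of each genotype were male and mice 3 and 4 female, so sex and mouse number cannot be told apart.

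After peripheral axotomy, a signal carried back to the cell body turns on transcription factors such as ATF3, JUN and SOX11, and these turn on genes whose products help the axon regrow. Effector genes include proteins of the growth cone and cytoskeleton (Gap43, Basp1, Sprr1a, Csrp3), receptors and surface proteins (Tnfrsf12a, Flrt3, Cckbr, Ecel1) and a stress response gene (Gadd45a). Tsc2 encodes tuberin, which holds back mTORC1, a kinase complex that promotes protein synthesis and growth.

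Values are normalized CPM, in which the summed counts of each mouse were scaled to a common effective library total. Libraries held 8339220 to 34228180 counts on genes, and mice 47959617 to 61290435. The library with the fewest counts was 3B of Nav-Tsc2. The targeted gene was lower in the mice labelled Nav-Tsc2: Tsc2 averaged 20.9 ± 5.18 CPM in control and 8.87 ± 1.52 CPM in Nav-Tsc2 mice (SD, n = 4 each), without overlap (log2 fold change -1.24 ± 0.22 SE, edgeR adjusted p = 0.00400). Of its exon sequence, 7.2% overlaps Pkd1. The nociceptor sodium channel Scn10a had 670 ± 138 CPM in control and 608 ± 35.1 CPM in Nav-Tsc2 mice (SD, n = 4 mice each), and the summed level of 6 pan-neuronal markers was 11932 to 15130 CPM in control and 12928 to 14603 CPM in Nav-Tsc2 mice. In these pools, fewer cells that express a gene and less of its RNA per cell cannot be told apart.

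Sprr1a, Ecel1 and Cckbr showed the largest genotype differences of the 9 genes. Their promoters are printed here from RefSeq (GRCm38.p6, 250 bases before to 50 after the start, on the gene's strand) with matches to the AP-1 motif TGANTCA in capitals, since JUN and ATF3 belong to the family of proteins that bind it.
Sprr1a (chr3:92485832-92486131, minus strand): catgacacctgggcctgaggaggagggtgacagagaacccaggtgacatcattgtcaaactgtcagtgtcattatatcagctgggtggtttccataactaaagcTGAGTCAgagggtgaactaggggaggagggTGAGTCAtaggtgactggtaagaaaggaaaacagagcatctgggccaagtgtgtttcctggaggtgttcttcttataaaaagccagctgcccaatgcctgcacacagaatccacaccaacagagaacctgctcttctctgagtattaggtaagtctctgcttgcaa
Ecel1 (chr1:87156307-87156606, minus strand): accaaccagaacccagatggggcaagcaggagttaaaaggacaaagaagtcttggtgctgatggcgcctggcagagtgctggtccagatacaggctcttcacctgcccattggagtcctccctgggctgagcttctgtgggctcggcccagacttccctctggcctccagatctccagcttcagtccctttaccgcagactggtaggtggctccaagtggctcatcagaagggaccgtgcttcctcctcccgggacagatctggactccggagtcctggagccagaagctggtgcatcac
Cckbr (chr7:105425481-105425780, plus strand): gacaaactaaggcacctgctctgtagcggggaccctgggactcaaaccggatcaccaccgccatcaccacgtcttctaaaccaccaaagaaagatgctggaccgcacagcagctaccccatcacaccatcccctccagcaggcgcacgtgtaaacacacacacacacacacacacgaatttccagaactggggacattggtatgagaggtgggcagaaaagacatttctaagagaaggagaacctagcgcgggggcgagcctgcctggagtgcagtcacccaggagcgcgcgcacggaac
The Sprr1a window held 2 matches, both TGAGTCA, at bases -146 to -140 and -116 to -110 from the start, and the other 2 windows held none.

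A promoter was found for 8 of the 9 genes, with 2 for Csrp3, and Gap43 had no entry. Both strands were searched for 4 motifs, none of which contains another. The AP-1 motif was found in Sprr1a alone among the 8, and 7.81% of all 32851 promoters held it. The cAMP response element TGACGTCA (1.79% of promoters), the ATF4 composite element TGATGNAA (3.97%) and the STAT motif TTCNNNGAA (8.3%) were found in none of the 8. Base composition differed widely, from 48.7% GC and 0 CpG in Sprr1a to 78% GC and 38 CpG in Basp1, against medians of 52.7% and 7 over all promoters. A match describes letters in a window and shows no binding, and no match says nothing of a factor.

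Both growth-cone genes that control neurons already expressed strongly differed least. Gap43 (chromosome 16, 42248442 to 42340651) encodes the growth-associated protein GAP-43, a calmodulin-binding protein of the growth cone membrane. Its level was 1587, 1780, 842 and 1138 CPM in control mice 1 to 4, and 1651, 2151, 2209 and 1852 CPM in Nav-Tsc2 mice 1 to 4. The groups overlapped, since control 2 lay above Nav-Tsc2 1, and the 2 lowest mice were the female controls. The means were 1337 ± 426 and 1966 ± 262 CPM (SD, n = 4 mice each), a log2 fold change of 0.56 ± 0.21 SE. That difference was 0.38 without control 3 and 0.72 without control 2.

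Basp1 (chromosome 15, 25363277 to 25413764), which encodes a membrane-bound growth-cone protein related in behaviour to GAP-43, had 74.1, 86.6, 103 and 99.4 CPM in control mice and 146, 135, 150 and 173.5 CPM in Nav-Tsc2 mice. Every Nav-Tsc2 mouse lay above every control mouse. The means were 90.8 ± 13.2 and 151 ± 16.3 CPM (SD, n = 4 mice each), a ratio of 1.66 and a log2 fold change of 0.73 ± 0.12 SE.

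Sprr1a (chromosome 3, 92483952 to 92485895) encodes a small proline-rich protein of the skin's cornified envelope that injured sensory neurons also make and that promotes axon outgrowth. It had 4.74, 4.98, 4.20 and 3.23 CPM in control mice and 232, 234, 247 and 177 CPM in Nav-Tsc2 mice, so the lowest Nav-Tsc2 mouse was far above the highest control. The means were 4.29 ± 0.776 and 223 ± 31.1 CPM (SD, n = 4 mice each), a ratio of 51.9 and a log2 fold change of 5.70 ± 0.18 SE. Its relatives in skin were near or at 0: Sprr1b had 1 count over the control and 13 over the Nav-Tsc2 mice, and Sprr2a1 and Sprr3 had 0 counts. Of 5 keratinocyte markers, Krt5 had 0 counts in every mouse, and Krt14 had 1.14 CPM in control and 0.168 CPM in Nav-Tsc2 mice on average. Sfn, another of the 5, went the other way, with 0.326 and 1.17 CPM and no overlap, and was not called (1.84 ± 0.72 SE, edgeR adjusted p = 0.101). The summed level of the 5 was 6.69 to 9.81 CPM in control and 6.53 to 8.48 CPM in Nav-Tsc2 mice.

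Csrp3 (chromosome 7, 48830398 to 48848033) encodes the muscle LIM protein, an actin-binding protein of striated muscle that is also made in injured sensory neurons. It had too few counts for the fit. The control mice had 0, 65, 0 and 0 counts and the Nav-Tsc2 mice 6, 2, 0 and 0. All 65 came from libraries A (38) and C (27) of control 2, where the level was 1.23 CPM, and no Nav-Tsc2 library passed 0.346 CPM. The same control mouse had the highest control values of the muscle genes Ckm (0.795 CPM) and Tnnt3 (0.436 CPM), but not of the more abundant Acta1 (3.24 CPM, other controls 2.47 to 5.86 CPM) and Mylpf (2.86 CPM, other controls 1.97 to 4.25 CPM), and Myh4 had none there. The summed level of 5 striated muscle markers was 4.83 to 10.3 CPM in control and 7.59 to 12.4 CPM in Nav-Tsc2 mice. The part of muscle RNA in the Csrp3 counts was not tested.

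**Figure D1:**
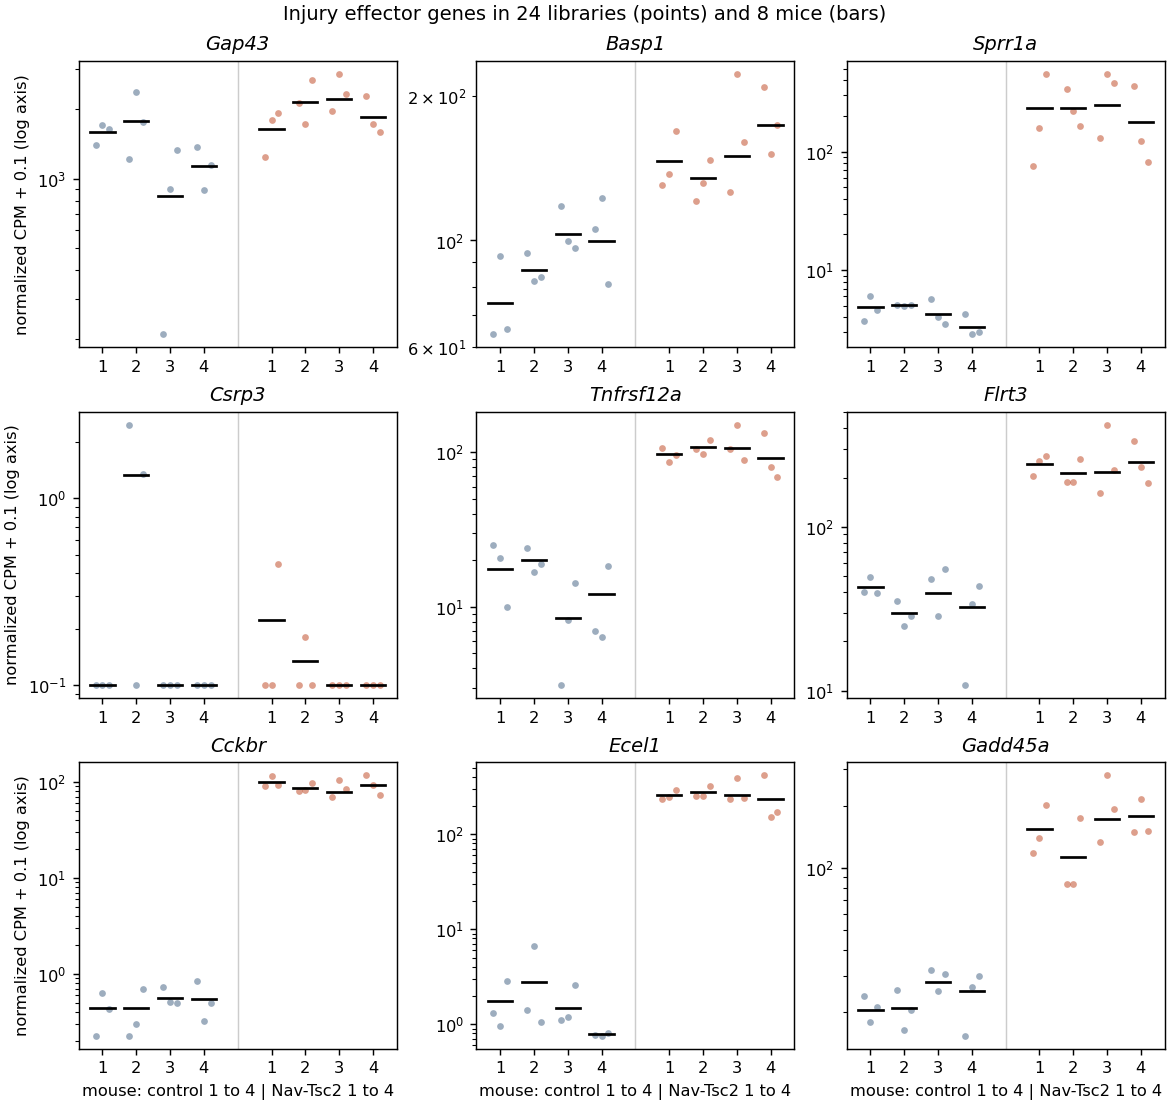
Normalized CPM of the 9 nerve injury effector genes on log axes, with a small constant added so that 0 can be drawn, in the 3 libraries (points) and the sum of libraries (bars) of each of 4 control mice (left) and 4 Nav-Tsc2 mice (right). Nav-Tsc2 points lie above all control points for 6 genes, the groups mix for Gap43, and Csrp3 was counted in few libraries.

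Among the receptors, Tnfrsf12a (chromosome 17, 23675445 to 23677468) encodes Fn14, the receptor for the cytokine TWEAK. It had 17.6, 19.9, 8.32 and 11.9 CPM in control mice and 97.5, 108, 107 and 92.1 CPM in Nav-Tsc2 mice. The groups were well apart and the 2 lowest controls were female. The means were 14.4 ± 5.29 and 101 ± 7.47 CPM (SD, n = 4 mice each), a log2 fold change of 2.81 ± 0.25 SE. The gene for TWEAK, Tnfsf12, did not pass the test (4.67 ± 1.70 against 4.07 ± 0.585 CPM, SD, n = 4 mice each, log2 fold change -0.20 ± 0.34 SE, edgeR adjusted p = 0.734).

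Flrt3 (chromosome 2, 140650914 to 140671469) encodes a leucine-rich repeat membrane protein that binds latrophilins and UNC5 receptors and takes part in axon guidance. It had 42.6, 29.5, 39.4 and 32.2 CPM in control mice and 242, 212, 216 and 248 CPM in Nav-Tsc2 mice, without overlap. The means were 35.9 ± 6.13 and 229 ± 18.0 CPM (SD, n = 4 mice each), a ratio of 6.39 and a log2 fold change of 2.67 ± 0.13 SE. Of its binding partners, the latrophilin genes Adgrl1 (log2 fold change -1.08 ± 0.20 SE, edgeR adjusted p = 0.00490) and Adgrl3 (-0.70 ± 0.18 SE, adjusted p = 0.0215) were lower in Nav-Tsc2 mice. The latrophilin gene Adgrl2 (0.12 ± 0.34 SE, edgeR adjusted p = 0.855) and the UNC5 receptor genes Unc5b (0.75 ± 0.45 SE, adjusted p = 0.278) and Unc5d (0.00 ± 0.50 SE, adjusted p = 0.998) were not called.

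Cckbr (chromosome 7, 105425731 to 105470898) encodes the cholecystokinin B receptor, a G protein-coupled receptor for the peptides cholecystokinin and gastrin. It showed the largest difference of the 9 genes. Control mice had 0.339, 0.341, 0.452 and 0.442 CPM, from 18 to 25 counts per mouse, and Nav-Tsc2 mice had 99.0, 87.3, 79.0 and 94.1 CPM, from 4811 to 5557 counts. The means were 0.393 ± 0.0620 and 89.8 ± 8.67 CPM (SD, n = 4 mice each), a ratio of 228 and a log2 fold change of 7.83 ± 0.16 SE. Its ligand gene Cck was barely counted, with 19 counts over the control and 22 over the Nav-Tsc2 mice, and was not tested.

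Ecel1 (chromosome 1, 87147655 to 87156521) encodes a membrane metallopeptidase of the neprilysin family, also called DINE, that is induced in damaged neurons. Its values were 1.64, 2.69, 1.39 and 0.683 CPM in control mice and 260, 276, 258 and 233 CPM in Nav-Tsc2 mice. The Nav-Tsc2 mice were close to each other, and control 2 and control 4 were the farthest apart of the control mice. The means were 1.60 ± 0.831 and 256 ± 17.8 CPM (SD, n = 4 mice each), a ratio of 160.1 and a log2 fold change of 7.32 ± 0.36 SE.

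Gadd45a (chromosome 6, 67035096 to 67037457) encodes a small nuclear protein of the stress and DNA damage response. It had 20.4, 20.7, 28.0 and 25.1 CPM in control mice and 154, 112, 171 and 179 CPM in Nav-Tsc2 mice, without overlap. The means were 23.6 ± 3.65 and 154 ± 29.8 CPM (SD, n = 4 mice each), a log2 fold change of 2.71 ± 0.17 SE. Of its exon sequence, 19.1% overlaps E230016M11Rik on the other strand, and reads there cannot be assigned to one of them unless strand was used in counting. Its relatives Gadd45b (log2 fold change -0.71 ± 0.56 SE, edgeR adjusted p = 0.428) and Gadd45g (0.23 ± 0.22 SE, adjusted p = 0.509) did not pass the test.

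In all, 8 of the 9 genes had enough counts for the edgeR fit, and 7 of the 9 were called higher in Nav-Tsc2 mice (adjusted p under 0.05 and log2 fold change over 0.5), where 9.12% of the 17178 genes tested were called higher. None of the 9 was called lower, where 8% of genes were. The same 7 were higher in every Nav-Tsc2 mouse than in every control mouse, against 14.6% of genes. The median log2 fold change of the 8 was 2.76, and that of all genes tested was 0.01. A log2 fold change over 2 was found for 6 of the 9, against 4.18% of genes. These counts use the measurement by which the genes were chosen, so nothing is read from them. By size of the log2 fold change among all 17178 genes, Cckbr ranked 40, Ecel1 63, Sprr1a 127, Tnfrsf12a 410, Gadd45a 429, Flrt3 437, Basp1 2709 and Gap43 3548.

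**Figure D2:**
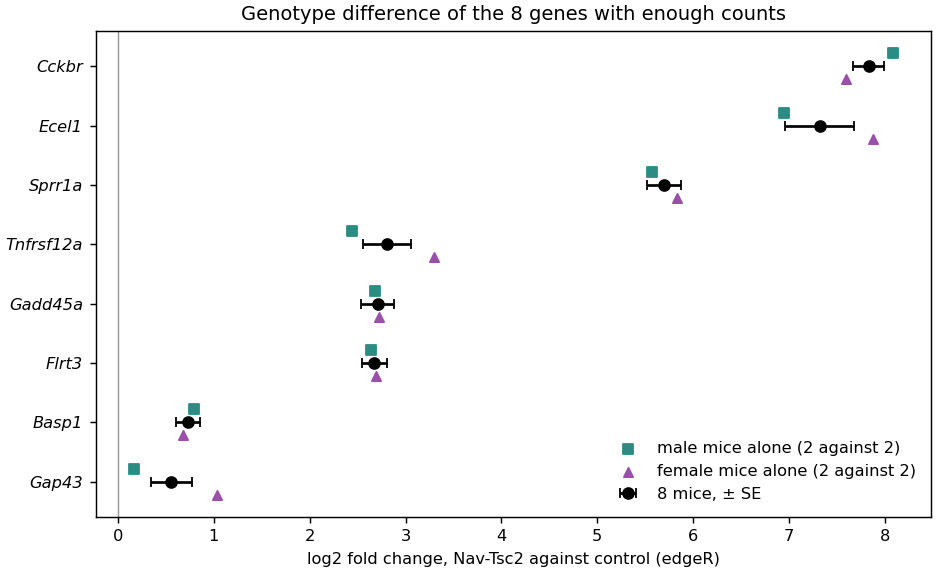
Log2 fold change (Nav-Tsc2 against control) of the 8 effector genes with enough counts: black points with bars are the estimate ± SE over 8 mice, and squares and triangles are the same from male and from female mice alone. Values run from 0.56 for Gap43 to 7.83 for Cckbr, and the male and female values lie farthest apart for Ecel1, Gap43 and Tnfrsf12a.

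Levels can be set against each other between genes only per length, so CPM were divided by the merged exon length in kb. In control mice the order was Gap43 (878 CPM per kb), Basp1 (45.2), Gadd45a (13.4), Tnfrsf12a (7.48), Flrt3 (7.38), Sprr1a (5.32), Ecel1 (0.458), Cckbr (0.137) and Csrp3 (0.115). In Nav-Tsc2 mice the order was Gap43 (1291), Sprr1a (276), Gadd45a (87.4), Basp1 (75.2), Ecel1 (73.3), Tnfrsf12a (52.3), Flrt3 (47.2), Cckbr (31.4) and Csrp3 (0.0149). Sprr1a moved from rank 6 to rank 2 and Ecel1 from 7 to 5, Basp1 went from 2 to 4, Tnfrsf12a from 4 to 6 and Flrt3 from 5 to 7, and Gap43, Gadd45a, Cckbr and Csrp3 held their ranks.

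Not all neighbours in those orders were apart. In control mice the ranges over 4 mice of Tnfrsf12a (4.31 to 10.3 CPM per kb), Flrt3 (6.06 to 8.76) and Sprr1a (4.01 to 6.18) overlapped, and that of Csrp3 (0 to 0.461) took in that of Cckbr (0.118 to 0.158). In Nav-Tsc2 mice those of Gadd45a (63.6 to 101), Basp1 (67.0 to 86.4) and Ecel1 (66.5 to 78.8) overlapped, as did those of Tnfrsf12a (47.7 to 55.7) and Flrt3 (43.7 to 50.9). Although the difference of Cckbr was the largest, its level in Nav-Tsc2 mice (27.6 to 34.6) stayed below those of the other 7 genes with enough counts.

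**Figure D3:**
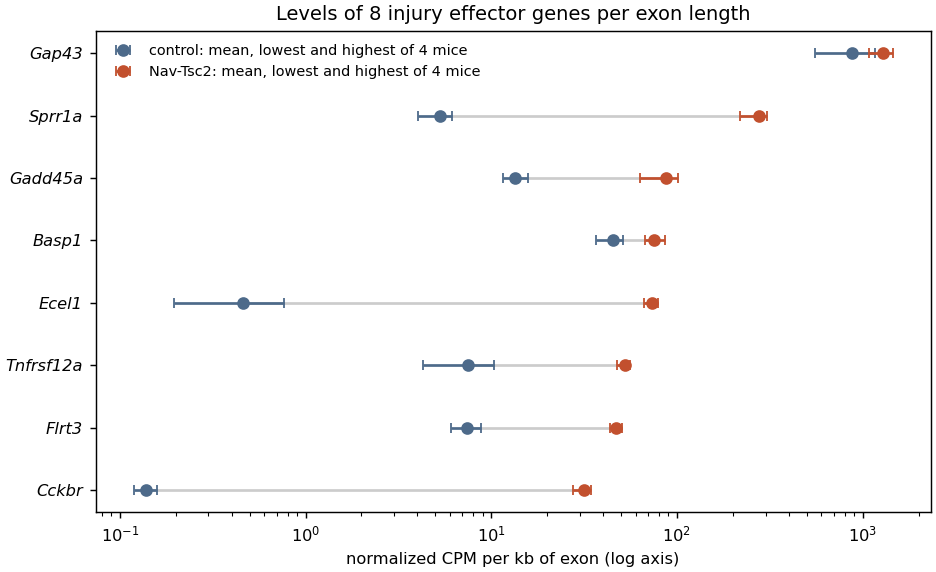
Normalized CPM per kb of exon on a log axis for 8 effector genes, with points for the mean and bars from the lowest to the highest of 4 mice, control in blue and Nav-Tsc2 in orange. The control levels span from 0.137 (Cckbr) to 878 (Gap43), and the Nav-Tsc2 levels from 31.4 to 1291 for the same 2 genes.

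The 3 libraries of a mouse are separate pools of 100 cells, so their spread shows how evenly a gene was sampled. All 12 Nav-Tsc2 libraries lay above all 12 control libraries for Sprr1a, Gadd45a, Flrt3, Tnfrsf12a, Ecel1 and Cckbr, 6 of the 9 genes, against 2.41% of genes tested. For Basp1, 11 of 12 Nav-Tsc2 libraries did, with the lowest at 121 CPM and the highest control library at 123 CPM. For Gap43, only 2 of 12 did. These counts use the genotype comparison by which the genes were chosen, and libraries of a mouse are no independent samples. Nothing is read from these counts.

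Sprr1a varied most between the pools of one Nav-Tsc2 mouse. Its Nav-Tsc2 libraries ran from 75.3 CPM (1A) over a median of 193 CPM to 449.6 CPM (1C), so that both extremes, 5.97-fold apart, came from the same mouse. The SD of log2(CPM + 1) within mice was 1.00 for Sprr1a, against 0.22 between the mean values of the mice, and the median within-mouse SD of 8367 genes of at least 10 CPM was 0.24 in these libraries. The 12 control libraries of Sprr1a were evenly low, from 2.77 to 5.99 CPM.

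Cckbr was the most even of the 8 genes between Nav-Tsc2 pools, from 69.7 CPM (3A) over 91.9 to 117 CPM (4A), a within-mouse SD of 0.25. Flrt3 ran from 162 CPM (3A) to 420.2 CPM (3B), Ecel1 from 152 CPM (4B) to 417 CPM (4A), Gadd45a from 83.4 CPM (2A) to 280.2 CPM (3B) and Tnfrsf12a from 69.7 CPM (4C) to 151 CPM (3B). Gap43 and Basp1 also had their highest Nav-Tsc2 value in 3B (2847 and 222 CPM), the library with the fewest counts. Without 3B the log2 fold change of Gap43 was 0.53 and that of Sprr1a 5.64.

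In control pools Gap43 had the largest within-mouse SD of the 8 genes. It fell to 210 CPM in library 3A and reached 2392 CPM in 2B, with a within-mouse SD of 0.76, against a median of 0.36 over 8342 genes. Tnfrsf12a was also lowest in 3A, at 3.02 CPM, with 24.9 CPM in 1A. Ecel1 ran from 0.657 CPM (4B) to 6.56 CPM (2B), and its largest ratio between libraries of 1 mouse was 6.79, against 6.38 for Gap43. Flrt3 had 10.7 CPM in 4A and 55.2 CPM in 3C.

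Whether the effector genes moved together between pools was described by Pearson's r of the library deviations from the mean of their mouse, on log2(CPM + 1). In the 12 Nav-Tsc2 libraries alone, all 28 pairs were above 0, from 0.26 to 0.89 with a median of 0.69, a value that 3.31% of all gene pairs reached. In control libraries Cckbr, Ecel1 and Sprr1a lay below 10 CPM, and the part of counting noise in their deviations was not tested. The genotypes were set side by side for the 5 genes of at least 10 CPM in both (Gap43, Basp1, Tnfrsf12a, Flrt3 and Gadd45a), a choice made after seeing the data. Their 10 pairs had a median r of 0.69 in Nav-Tsc2 libraries, with 10 above 0, and -0.11 in control libraries, with 4 above 0 and a range from -0.44 to 0.84. Over 24 libraries it was 0.28. These libraries are 3 from each of 4 mice per genotype, so they are no independent samples, and the difference between genotypes was not tested. Without 3B the median r over Nav-Tsc2 libraries was 0.62, with 27 of 28 pairs above 0 and 6.41% of all pairs at or above it.

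The closest pairs in Nav-Tsc2 pools were Flrt3 with Basp1 (r = 0.89), Flrt3 with Cckbr (0.89) and Tnfrsf12a with Ecel1 (0.89), and the loosest was Gadd45a with Tnfrsf12a (0.26). The mean standardized deviation of the 8 genes was highest in 3B (1.47) and 4A (1.34) and lowest in 3A (-1.21). Across the same 12 libraries this score went with other features of the pools. Its r was -0.68 with log2 total counts and 0.83 with the share of reads on no single gene. With summed markers it was 0.73 for endothelial, 0.77 for macrophage, -0.85 for red blood cell, -0.51 for nociceptor and 0.49 for neuron markers. The other marker lists lay from -0.13 (satellite glia) to 0.27 (keratinocyte), and summed immediate early genes gave 0.01. The sums were low in Nav-Tsc2 mice for red blood cell (0.392 to 0.672 CPM), endothelial (5.81 to 15.5 CPM) and macrophage markers (7.76 to 19.4 CPM). The part of these features and of counting noise in the shared movement was not tested.

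**Figure D4:**
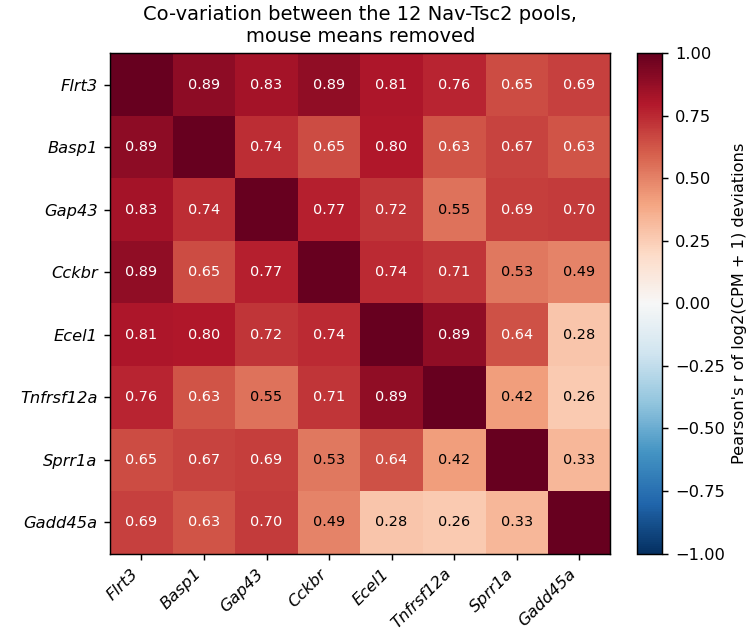
Pearson's r between 8 effector genes of their log2(CPM + 1) deviations from the mouse mean over the 12 Nav-Tsc2 libraries, from -1 (blue) to 1 (red). All 28 pairs are above 0, and Gadd45a shows the lowest values, 0.26 with Tnfrsf12a and 0.28 with Ecel1.

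A second score of the 8 genes was formed over all 24 libraries, in which the same low control values of 3 genes enter. The median r of the 8 genes was 0.20 there. The 5 genes of 8443 whose deviations were most like this 24-library score were Hax1 (r = 0.86), Tuba1a (0.83), Inhbb (0.80), Ap1s1 (0.80) and Mia3 (0.78). Genes were not ranked against the score of the Nav-Tsc2 libraries alone. Inhbb, which encodes the beta B chain of activin and inhibin, was itself higher in Nav-Tsc2 mice, with 0.331 ± 0.102 against 29.5 ± 5.09 CPM (SD, n = 4 mice each), a log2 fold change of 6.48 ± 0.27 SE (edgeR adjusted p = 2.27e-06). Tuba1a, an alpha-tubulin gene, differed by 0.29 ± 0.07 SE (adjusted p = 0.0141), under the fold threshold. Sox11 ranked 60 (r = 0.61), Atf3 211 (0.50) and Jun 715 (0.36) by the same measure. Of the axotomy-induced genes, Stmn4 ranked 246 (0.48), Cdkn1a 2031 (0.18), Gal 2754 (0.11) and Nts 3456 (0.05). Scn10a ranked 8396 of 8443 (-0.65).

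Other genes of the injury response were read from lists chosen with earlier results of these samples known. Over all genes tested, 9.12% were called higher and 8% lower. Of 12 injury transcription factors, 11 were tested and 5 were called higher and 0 lower, and the median log2 fold change was 0.57. Atf3 rose from 76.0 ± 23.2 to 434 ± 32.6 CPM (SD, n = 4 mice each; log2 fold change 2.51 ± 0.22 SE, edgeR adjusted p = 0.000114), and Sox11 from 155 ± 42.1 to 855 ± 66.1 CPM (2.46 ± 0.19 SE, adjusted p = 5.93e-05). Smad1, a transducer of BMP signals, rose by 1.16 ± 0.12 SE (adjusted p = 0.000278). Jun had 67.1 ± 25.7 and 99.8 ± 8.15 CPM (SD, n = 4 mice each) and did not pass the test (0.57 ± 0.25 SE, edgeR adjusted p = 0.140).

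Of 28 other axotomy-induced genes, 26 were tested, and 20 were called higher and 1 lower, and their median difference was 2.12 on the log2 scale. Among those that rose were Itga7, a laminin receptor chain (2.14 ± 0.14 SE, edgeR adjusted p = 2.28e-05), Cdkn1a, the cell cycle inhibitor p21 (2.60 ± 0.24 SE, adjusted p = 0.000130), and Gpr151, an orphan receptor (3.82 ± 0.37 SE, adjusted p = 0.000182). Bdnf, a neurotrophin, fell by 1.32 on the log2 scale (SE 0.37, adjusted p = 0.0332), and it was not called under a replicate block or without any one of 5 mice, control 1, control 2 and Nav-Tsc2 1, 2 and 3. Vip had 0 counts in all 8 mice. Of 14 axotomy-reduced genes, all tested, 6 were called lower and 0 were called higher, and the median was -0.73. Those lower included Sst, the neuropeptide somatostatin (-9.04 ± 0.84 SE, adjusted p = 0.000144), Kcna2, a potassium channel (-0.97 ± 0.14 SE, adjusted p = 0.00129), and Calca, the gene for CGRP (-1.99 ± 0.31 SE, adjusted p = 0.00215). Mrgprd went the other way without overlap (159 ± 144 against 537 ± 47.7 CPM, SD, n = 4 mice each). It was not called (1.76 ± 0.67 SE, edgeR adjusted p = 0.0935). P2rx3 (0.53 ± 0.24 SE, adjusted p = 0.155) and Scn11a (0.01 ± 0.28 SE, adjusted p = 0.984) were not called either.

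Ligands and binding partners of the 9 genes, a list chosen in the same way, did not share the upward direction of the axotomy-induced genes. Of 18, 16 were tested, 4 were called lower and 1 was higher, where 8% and 9.12% of all genes tested were. The median of the tested partners was -0.11 on the log2 scale. Those lower included Adgrl1 and Adgrl3, and Cdkn1a, whose protein binds GADD45A, was the one that was higher. The count of partners called lower was 2 without Nav-Tsc2 1 and 2 without Nav-Tsc2 2.

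Relatives of the 9 genes went both ways. Of 19 family members, 16 were tested, 4 were called higher and 3 lower, where 9.12% and 8% of all genes tested were. The median of the tested relatives was -0.04. In the family of Flrt3, Flrt2 was higher (8.68 ± 0.898 against 18.3 ± 0.800 CPM, SD, n = 4 mice each, log2 fold change 1.08 ± 0.14 SE, edgeR adjusted p = 0.000769) and Flrt1 was lower (32.3 ± 10.1 against 6.80 ± 4.52 CPM, SD, n = 4 mice each, -2.25 ± 0.45 SE, adjusted p = 0.00736). Marcksl1, which like Gap43 and Basp1 encodes a membrane-bound, calmodulin-binding protein, was higher (1.83 ± 0.23 SE, adjusted p = 0.000720), while Marcks was not called (0.09 ± 0.16 SE, adjusted p = 0.737). In the LIM protein family of Csrp3, Csrp2 was lower (-1.07 ± 0.30 SE, adjusted p = 0.0315) and Csrp1 was higher (0.99 ± 0.26 SE, adjusted p = 0.0263). Ece2, an endothelin-converting enzyme related to Ecel1, was also lower (-0.67 ± 0.10 SE, adjusted p = 0.00198), and Tnfrsf1b, a TNF receptor gene, was higher (3.91 ± 0.85 SE, adjusted p = 0.0108).

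**Figure D5:**
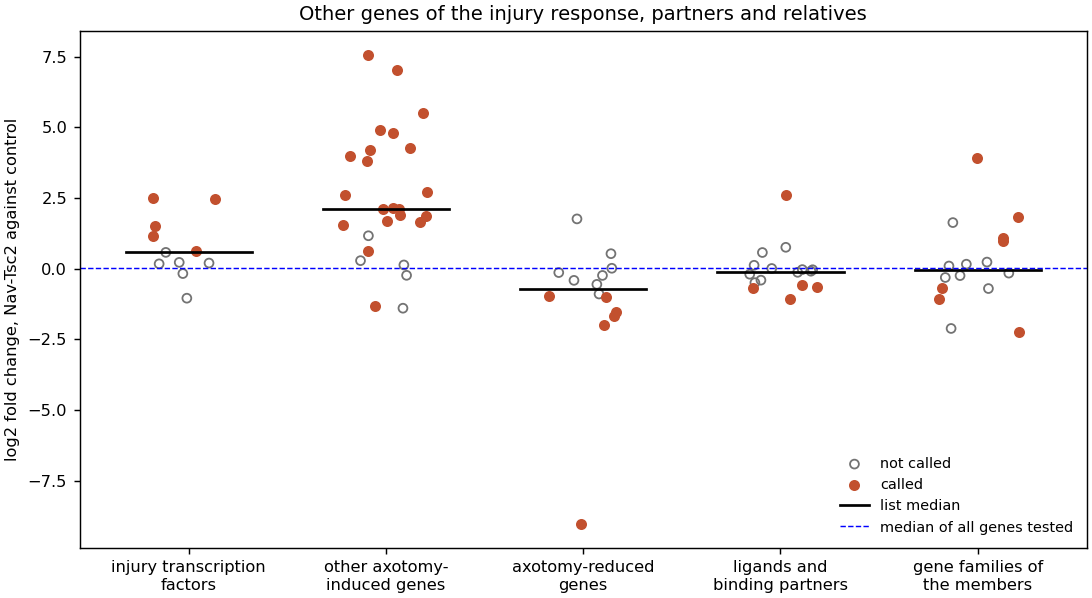
Log2 fold change (Nav-Tsc2 against control) of each tested gene in 5 lists, filled where called and open where not, with black bars for the list medians (0.57, 2.12, -0.73, -0.11 and -0.04) and a dashed line for the median of all genes tested. Other axotomy-induced genes lie mostly above 0, and partners and relatives lie on both sides.

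Markers of other cells were read beside these values. Of 9 tested immediate early genes, which dissociation can induce, 2 were called lower (Fos, -0.78 ± 0.20 SE, edgeR adjusted p = 0.0220, and Btg2, -1.07 ± 0.27 SE, adjusted p = 0.0216) and 1 higher (Dusp1, 1.39 ± 0.23 SE, adjusted p = 0.00311). The count called lower was 0 or 1 without any one of 6 mice, all but control 3 and control 4. The summed level of 5 endothelial markers was 0.326 to 1.83 CPM in control and 5.81 to 15.5 CPM in Nav-Tsc2 mice, through Flt1 (7.94 ± 0.73 SE, adjusted p = 0.000142) and Kdr (2.29 ± 0.71 SE, adjusted p = 0.0469), while Cdh5, Pecam1 and Cldn5 had too few counts to test. Only 1 of these 2 calls was kept without any one of 7 mice, all but control 2, and without library 3B. Macrophage markers summed to 1.77 to 6.33 CPM in control and 7.76 to 19.4 CPM in Nav-Tsc2 mice, with 1 of 5 tested called higher (Cx3cr1, 7.36 ± 0.63 SE, adjusted p = 9.98e-05). Of the others tested, Csf1r (mean 0.803 CPM in control, 3.71 CPM in Nav-Tsc2 mice) and Cd68 (0.495 and 2.03 CPM) were higher without overlap. Aif1 differed little (0.870 and 1.10 CPM), and C1qb was lower on average (1.75 and 0.574 CPM). None of these passed the test, and C1qa had too few counts to test. Satellite glia markers summed to 1494 to 1794 CPM in control and 578 to 898 CPM in Nav-Tsc2 mice, with 1 of 7 called, S100b (-3.25 ± 0.51 SE, adjusted p = 0.00218).

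In nociceptor and neuron lists, Prph was called higher (0.72 ± 0.16 SE, edgeR adjusted p = 0.0111), and genes called lower included Calca, Snap25 (-1.10 ± 0.12 SE, adjusted p = 0.000332) and Rbfox3 (-0.83 ± 0.17 SE, adjusted p = 0.00853). No Schwann cell (6 tested), fibroblast (5), red blood cell (2), striated muscle (2) or keratinocyte (3) marker was called by edgeR. Summed levels were 1314 to 1642 CPM in control and 1474 to 1764 CPM in Nav-Tsc2 mice for Schwann cell, 49.4 to 230.2 and 93.9 to 182 CPM for fibroblast, and 1.09 to 1.93 and 0.392 to 0.672 CPM for red blood cell markers. The part of other cells in the levels of the effector genes was not tested.

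Sex was a comparison that the choice of genes had not used. With genotype in the model, none of the 8 genes differed by sex after correction over all genes, where 0.0291% of genes tested were called. The smallest unadjusted p was that of Gadd45a, higher in female mice by 0.38 ± 0.11 SE on the log2 scale (edgeR p = 0.00748, adjusted p = 0.694). Both female mice of each genotype lay above both males, at 26.5 against 20.6 CPM in control and 175 against 133 CPM in Nav-Tsc2 mice on average. Basp1 was higher in females by 0.27 ± 0.09 SE (p = 0.0166, adjusted p = 0.698), and Tnfrsf12a was lower by 0.46 ± 0.19 SE (p = 0.0438, adjusted p = 0.737). Such values under 0.05 were found for 6.66% of all genes.

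The genotype difference itself was compared between the sexes by an interaction term, which called none of the 8 genes and 0.00582% of genes tested. Gap43 had a log2 fold change of 0.16 in male and 1.04 in female mice, a difference of 0.86 ± 0.26 SE (edgeR p = 0.0109, adjusted p = 0.376, and 5.36e-05 to 0.805 over 12 alternatives). Its control mean was 1684 CPM in males and 990 CPM in females (2 mice each), whereas Nav-Tsc2 means were 1901 and 2030 CPM. Tnfrsf12a gave 2.44 in male and 3.30 in female mice, a difference of 0.85 ± 0.27 SE (p = 0.0137, adjusted p = 0.391, and 0.0525 to 0.826 over the alternatives), again with lower female controls (18.8 against 10.1 CPM). Ecel1 gave 6.94 and 7.87, a difference of 0.91 ± 0.42 SE (adjusted p = 0.568, and 0.0158 to 0.892). Gap43 and Ecel1 were called under 1 of the 12 alternatives, the one with no filter on low counts, a setting that called 618 genes in all. An unadjusted p under 0.05 was found for 9.22% of genes.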

How the data were processed

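GFP-positive cells of 4 control and 4 Nav-Tsc2 mice were measured as 24 libraries of 100 cells. Reads were mapped by the authors to mm10 (STAR), and the deposited counts came from HTSeq-count, 1 whole number per gene and library. Versions, annotation and strand setting are not given in the sources used here. Reads on no single gene, 47.6% to 55.9%, were left out. The authors' table of their own genotype comparison (fold changes and p-values) was not used. cDNA was amplified without molecular identifiers, so counts are not molecules, and the SD between mice is given.

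Symbols and lengths came from a GRCm38 annotation, which matched 47224 of 47643 identifiers. Counts were summed per mouse, filtered (filterByExpr), scaled by TMM and tested with edgeR 4.0.16 (R 4.3.3) by a quasi-likelihood F-test with Benjamini-Hochberg adjustment. Sex and the genotype by sex interaction had models of their own. A gene was called when its adjusted p was below 0.05 and its log2 fold change beyond 0.5 in size. SE is the log2 fold change over the square root of F. Library deviations used log2(CPM + 1). DESeq2 1.42.0 and limma 3.58.1 served for alternatives. The fits were tested on simulated data.

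The 9 genes and all lists were chosen with earlier results of these data known. Genes were named by a rule: Tsc2, the 9 genes, set regulators, ligands and relatives, per pathway list up to 3 genes called each way with the smallest adjusted p, the genes called in marker lists, and the 5 genes most like the 9 between pools. Some genes that meet it are not reported here. Scn10a, Krt5, Krt14, Sfn, Ckm, Tnnt3, Acta1, Mylpf, Myh4, Csrp1, Adgrl2, Unc5b, Unc5d, Vip, Sprr1b, Sprr2a1, Sprr3, Cdh5, Pecam1, Cldn5, Csf1r, Cd68, Aif1, C1qb, C1qa, Mrgprd, P2rx3, Scn11a, Stmn4, Gal and Nts were named after their values were seen. Libraries of a mouse differed by more than sampling noise. Mice were separate animals.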

Additional observations from a re-analysis of the deposited data

Results flagged for a closer look

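In 90 groups of 4 mice, 1 mouse's distance from the other 3 was compared with Dixon's 95% critical value for 4 samples. It was passed in 5 groups, and chance gives about 4.5. Csrp3 had 1.23 CPM in control 2 and 0 in the other control mice. Bdnf had 41.0 CPM in Nav-Tsc2 1 and 62.1 to 66.5 CPM in the other Nav-Tsc2 mice. Fos had 119 CPM in control 4 and 224 to 242 CPM in the other controls. Tnfrsf1b had 4.25 CPM in Nav-Tsc2 3 and 5.23 to 5.27 CPM in the other 3. Tnfsf12, the ligand gene of Tnfrsf12a, had 2.13 CPM in control 4 and 5.30 to 5.78 CPM in the other 3. No other level of the 9 effector genes passed the value in either genotype.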

How the results depend on the processing

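Of the 9 effector genes, 7 were called higher and 0 lower under every alternative, apart from 8 higher without control 2 and in a fit of the 24 libraries that took mice as random effects. Their median log2 fold change was 2.73 to 2.84 when 1 mouse was left out and 2.86 with the random effect, and that of Ecel1 was 7.07 to 7.68 when 1 mouse was left out. The median of the 3 libraries gave 7.74 for Ecel1 and 8.05 for Cckbr. Genes called lower and higher numbered 1374 and 1567 by edgeR, 1951 and 2233 by DESeq2, 1253 and 2207 with the random effect, and 995 to 1577 and 1150 to 1925 with 1 mouse left out. The sex test called 5 genes by edgeR, 133 by DESeq2 and 344 with no low-count filter (1 of the 9, Csrp3). The interaction called 1 gene by edgeR, 376 by DESeq2, 618 with no low-count filter (2 of the 9, Gap43 and Ecel1), 0 with libraries weighted equally and 0 to 3 with 1 mouse left out. The median r of the 8 genes between pools was 0.20 over 24 libraries, -0.24 in control libraries, where 3 genes were under 10 CPM, and 0.69 in Nav-Tsc2 libraries, and 0.62 in the latter without 3B. For the 5 genes of at least 10 CPM in both genotypes it was -0.11 in control and 0.69 in Nav-Tsc2 libraries. This choice of genes and all settings without 3B were made after seeing the data. The causes were not tested.

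Equal replicate numbers were checked as pairs: deviations of log2(CPM + 1) from the genotype mean over 8445 genes correlated at 0.0831, 0.108, 0.0187 and 0.107 for numbers 1 to 4, not all above 0.1. Number 3 was above 0.1 at a pseudocount of 0.01 (0.146) and under it at 0.1 to 5. With a pseudocount of 1, control 3 and control 4 correlated best with another number (0.0294 and 0.112). With a replicate block, 1116 genes were called lower and 1329 higher, among them the same 7 of the 9, with 0 other axotomy-induced genes and 1 Schwann cell marker lower.

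In the lists, DESeq2 called 1 injury transcription factor, 1 Schwann cell and 2 red blood cell markers lower, and 2 macrophage, 1 striated muscle and 1 keratinocyte marker higher. No low-count filter gave 1 endothelial and 1 striated muscle marker higher. Sex as a covariate gave 2 axotomy-reduced genes and 2 nociceptor markers higher and 1 Schwann cell marker lower. The random effect gave 2 axotomy-reduced genes, 2 partners, 2 nociceptor, 2 macrophage, 1 Schwann cell, 1 endothelial, 1 fibroblast and 1 keratinocyte marker higher, and 1 immediate early gene and 1 Schwann cell marker lower. Without 3B, 1 endothelial marker was higher. With 1 mouse left out, counts lower were 0 to 1 for injury transcription factors, other axotomy-induced genes and Schwann cell markers, 0 to 2 for immediate early genes and 2 to 5 for partners. Counts higher were 0 to 1 for axotomy-reduced genes and for Schwann cell, striated muscle and keratinocyte markers, 0 to 2 for neuron markers, and 1 to 2 for nociceptor, endothelial and macrophage markers.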
